A study of Mus musculus with 24 samples.

Results

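Day 10 of culture was compared with day 2 in cells carrying miR-125b, with 3 libraries on each day, which are 6 of the 24 libraries of the series. They were chosen by their labels alone, and libraries with the same replicate number were treated as pairs. The cells were mouse fetal liver cells taken at E12.5 to E13.5 from a strain on the B6J.129 background with the allele Gt(ROSA)26Sortm1.1(CAG-cas9*,-EGFP), which expresses the nuclease Cas9 from the ubiquitous CAG promoter. All of them, controls included, carried a guide RNA against Gata1 (sgGata1) and are labelled Gata1s, the name of a shortened GATA1 protein without the amino-terminal activation domain. The second transgene was miR-125b in the 6 libraries compared and miR-ctrl in the 6 control libraries used beside them. Both arms received doxycycline, an inducer of gene expression, at 1 µg/mL, for 48 h in the day 2 groups and for 10 days in the day 10 groups. Libraries of day 13, with doxycycline continued or withdrawn on day 10, are given as levels only. The labels do not say whether a library came from 1 embryo or a pool, nor what a replicate number shares. The p-values measure the spread between libraries that remained after the replicate number was fitted, pooled over all 24. That spread may be technical. The labels give no clone and no share of edited cells, and counts per gene cannot show which form of GATA1 a library holds. In bulk RNA a change in the cells present and a change in RNA per cell cannot be told apart.

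MicroRNAs pair through their seed, bases 2 to 8 from the 5′ end, with matching sites in the 3′ untranslated regions (UTRs) of messenger RNAs, and loading of a microRNA lowers the stability or translation of such messengers. A copy of the miR-125b gene lies on human chromosome 21, and the microRNA is known for restraining the p53 pathway and for its action in blood stem and megakaryocytic cells. GATA1 drives the erythroid and megakaryocytic programs, and its short form is found in the myeloid leukemia of children with Down syndrome. The comparison asks how the cells changed between an early and a late time on the same microRNA. The mature sequence and sites in some of the messengers named below are shown here because the seed match is what marks a gene as a possible direct target. In the microRNA the capitals mark the seed, in the sites the 7-base match CTCAGGG. Sites come from the longest annotated 3′ UTR in GENCODE M21 on GRCm38, the microRNA from RefSeq (GRCm38.p6).
mmu-miR-125b-5p: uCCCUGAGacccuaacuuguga
Arid3a, chr10:79952873-79952902, plus strand: gtggcctcctgtgcCTCAGGGatgacagtg
Arid3a, chr10:79953806-79953835, plus strand: ccatgggtaactggCTCAGGGatatagcag
Lactb, chr9:66955445-66955474, minus strand: attagttctttacaCTCAGGGaaataacag
Tor2a, chr2:32761988-32762017, plus strand: aatgtgaacggcaaCTCAGGGacgaaggct
Trp53inp1, chr4:11170334-11170363, plus strand: agcaaaaatctattCTCAGGGtcagccata
Bcl2, chr1:106540090-106540119, minus strand: atcttcagtgattcCTCAGGGcctgaactt

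The match was sought on the transcript strand, and it is contained in the 8-base site CTCAGGGA, which the Arid3a, Lactb and Tor2a windows hold and those of Trp53inp1 and Bcl2 do not. Arid3a held 6 matches in all, of which the 2 with the 8-base site are printed and the rest are not shown. Ppp2ca, Bbc3, Cdkn1a, Cdkn1b, Cdkn2c and Ddit4 were looked up too and held no match. Sites of the other genes named below, Arid3b and Lin28b among them, were not looked up singly. The lack of a printed site says nothing about those genes. Of 11665 tested genes with an annotated 3′ UTR, 15.9% held at least 1 match. The share was 19.8% among the 207 genes higher at day 10 and 13.3% among the 256 genes lower at day 10, whose median 3′ UTRs were 1170 and 821 bases long. For the 8-base site the shares were 5.61% of all, 8.21% of the higher and 7.42% of the lower genes, so the lower genes were below the share of all genes for the 7-base match and above it for the 8-base site. The median log2 fold change was 0.02 for genes with a match and -0.01 for those without, and in control cells -0.05 and -0.00517. Genes with the match thus stood at nearly the same median change as the rest.

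Library totals of the 6 libraries ran from 15845604 to 20039006 counts, with 16784 to 17937 genes detected, and no library stood apart in depth. Blood cell genes were abundant and hepatoblast genes were near 0. The 37 megakaryocyte genes summed to 7914 to 10302 CPM at day 2 and 7226 to 9251 CPM at day 10, the 35 mast cell and basophil genes to 2360 to 3048 CPM at day 2 and 2397 to 3569 CPM at day 10, and the 31 heme and red cell membrane genes to 1906 to 2199 CPM at day 2 and 2048 to 2198 CPM at day 10. The 13 hepatoblast genes summed to 2.63 to 3.74 CPM at day 2 and 2.59 to 3.32 CPM at day 10, and Apob, Ttr, Serpina1a, Fgb, Fga, Ahsg and Hnf4a had 0 counts in all 6 libraries. The 10 globin genes found summed to 36.2 to 92.3 CPM at day 2 and 15.7 to 67.4 CPM at day 10, and Slc4a1, the anion exchanger of mature red cells, had 0 counts in all 6. Each of these 5 sums overlapped between the days.

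Between day 2 and day 10, 547 of 13419 genes changed in miR-125b cells, 270 higher and 277 lower at day 10. The call was an edgeR quasi-likelihood adjusted p under 0.05 with the replicate number as a block, and it took 4.08% of the genes tested (2.01% higher, 2.06% lower). An unadjusted p under 0.05 was found for 2976. Most changes were small. The median log2 fold change was 0.72 among the genes that rose and -0.43 among those that fell, against 0.00955 for all genes tested, and 124 of the 547 changed by at least 2-fold, 84 of them upward. The 3 replicate pairs had 1 direction for 545 of the called genes, as they had for 41.1% of all genes tested. For 455 of them the 3 libraries of each day did not overlap in CPM (counts relative to the TMM-scaled library size), where 19% of all genes tested did not overlap.

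**Figure D1:**
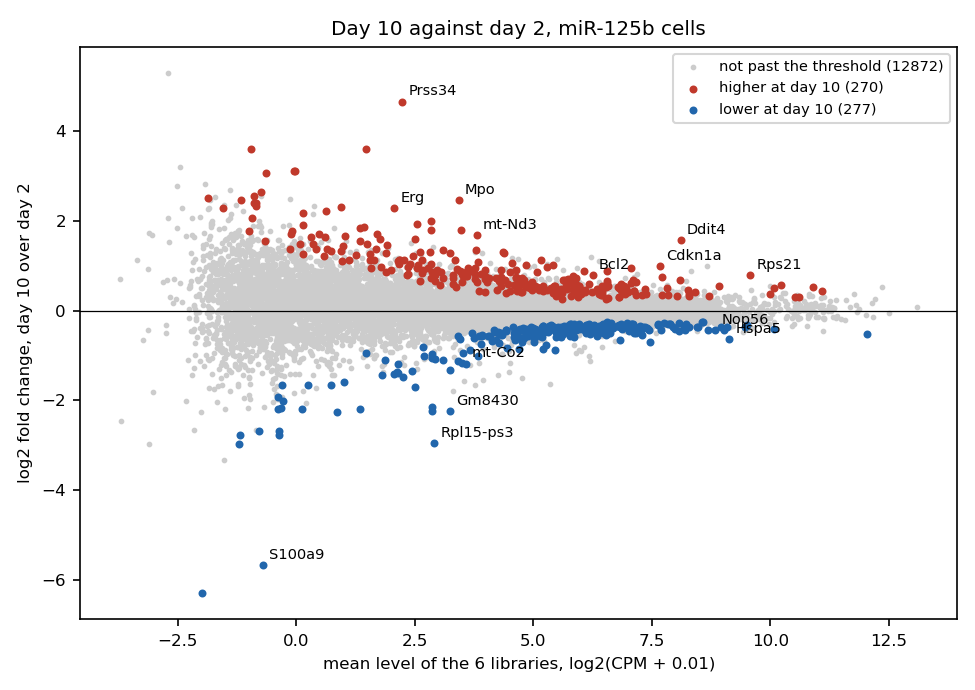
Log2 fold change of each of the 13419 genes tested (vertical axis, day 10 over day 2, edgeR fit with the replicate block) against the mean level of the 6 libraries (horizontal axis, log2 of CPM with 0.01 added). Red points are the 270 genes higher and blue points the 277 genes lower at day 10, grey points did not pass, and the genes that rose reach larger folds at middle levels than those that fell.

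The number of calls depended on the pairing and on single libraries. Without the replicate block 30 genes passed, 18 higher and 12 lower, and all 30 were among the 547. Without day 10 replicate 3 there were 20 calls, 16 higher and 4 lower, and all 20 were among the 547. Without day 10 replicate 2 there were 1045. The other fits without a library gave 220 (day 10 replicate 1), 418 (day 2 replicate 1), 210 (day 2 replicate 2) and 155 (day 2 replicate 3). The median log2 ratio of the rising genes was 0.65, 0.50 and 0.87 in the pairs of replicates 1, 2 and 3, and that of the falling genes -0.39, -0.31 and -0.64. Pair 3 thus had the widest changes. None of the 547 genes changed sign in any of the 6 fits. They were chosen by their change in these same libraries, so nothing is read from that. Called in all 6 fits were 17 genes, a set chosen after its values were seen.

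**Figure D2:**
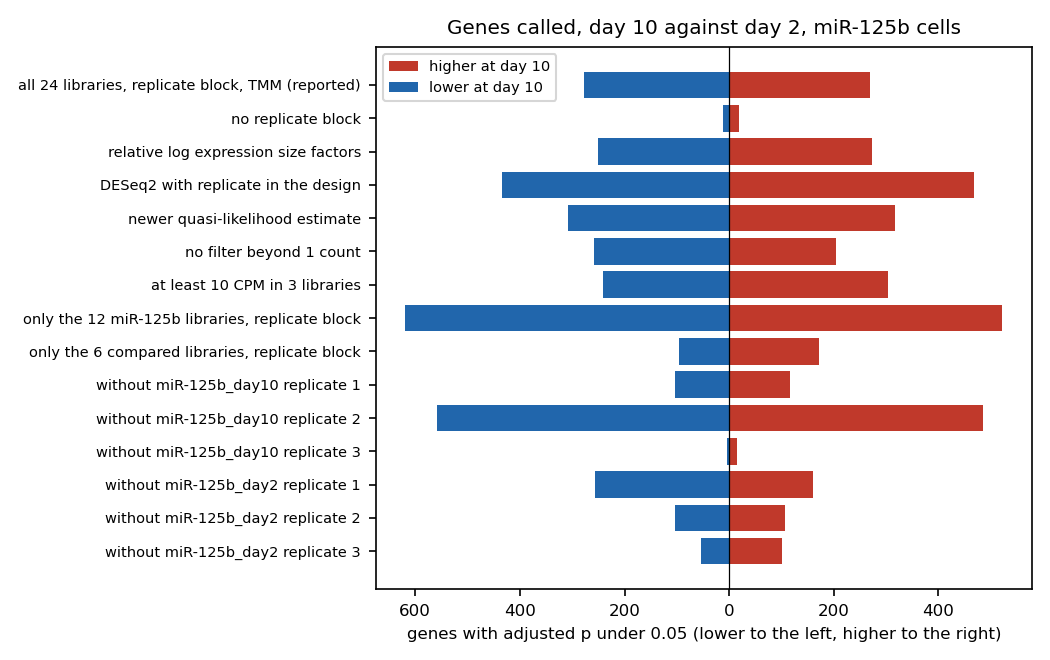
Number of genes with an adjusted p under 0.05 (horizontal axis) in each fit (vertical axis), with genes lower at day 10 drawn to the left in blue and genes higher to the right in red. The reported fit gives 277 and 270, the fit without the replicate block 12 and 18, and the fit without day 10 replicate 3 gives 4 and 16.

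Bcl2, the mitochondrial survival protein that blocks BAX and BAK, was among these 17. It stood at 67.8, 51.7 and 48.5 CPM at day 2 and 104, 74.5 and 112 CPM at day 10 (log2 fold change 0.79 ± 0.12, edgeR adjusted p = 0.00287), and the days did not overlap. Taf15, an RNA-binding protein of the FET family, had 214, 208 and 208 CPM at day 2 and 357, 344 and 309 CPM at day 10 (log2 fold change 0.68 ± 0.10, edgeR adjusted p = 0.00287), with narrow groups on both days. Rps21, a protein of the small ribosomal subunit, had 489, 489.8 and 688 CPM at day 2 and 1081, 917 and 896 CPM at day 10 (log2 fold change 0.79 ± 0.14, edgeR adjusted p = 0.00588). Cox11, a copper chaperone for cytochrome c oxidase, had 8.16, 8.71 and 10.9 CPM at day 2 and 17.4, 16.4 and 19.7 CPM at day 10 (log2 fold change 0.95 ± 0.15, edgeR adjusted p = 0.00336). In each of Taf15, Rps21 and Cox11 every day 10 library lay above every day 2 library. Prkar2a, a regulatory subunit of protein kinase A, fell from 15.5, 17.5 and 10.2 to 6.39, 10.7 and 3.46 CPM (log2 fold change -1.13 ± 0.17, edgeR adjusted p = 0.00287). It was lower in 3 of 3 pairs, but replicate 2 of day 10 lay above replicate 3 of day 2. The remaining genes of this set were Epdr1 (0.91), Rusc2 (1.01), Smim11 (0.97), Fbxw4 (0.87), Mettl7a1 (0.90), Tnfrsf14, Prss34, mt-Nd3 and Gm37795, which rose, and the processed pseudogenes Rpl15-ps3, Gm8430 and Rpl28-ps1, which fell. Without the block the call was lost for Bcl2 (adjusted p 0.161), Prkar2a (0.191), Fbxw4 (0.119), Mettl7a1 (0.258), Epdr1 (0.0549) and Rusc2 (0.0579), and it held for Taf15, Rps21, Cox11 and Smim11.

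The edited gene did not pass, and neither did Arid3a, Arid3b or Lin28b, which are described as miR-125b targets. Gata1 (chromosome X, 7959260 to 7978071 on the minus strand, ENSMUSG00000031162) stood at 254, 325 and 296 CPM at day 2 and 300.1, 411 and 309 CPM at day 10 (log2 fold change 0.21 ± 0.15, edgeR adjusted p = 0.445), with overlapping days. Arid3a (ENSMUSG00000019564, chromosome 10, 79927043 to 79955018, plus strand), a DNA-binding regulator and the target whose sites are printed above, had 41.3, 32.6 and 28.5 CPM at day 2 and 32.8, 32.8 and 29.8 CPM at day 10 (log2 fold change -0.10 ± 0.16, edgeR adjusted p = 0.753), and its days overlapped. Control cells held Arid3a at 68.3, 52.1 and 58.6 CPM at day 2 and 50.8, 53.6 and 71 CPM at day 10. Arid3b, its paralog, had 23.9, 31.3 and 24.3 CPM at day 2 and 20.8, 26 and 25.9 CPM at day 10 (log2 fold change -0.13 ± 0.13, edgeR adjusted p = 0.608). Lin28b, the let-7 inhibitor of fetal blood stem cells, had 40.5, 32.1 and 28.2 CPM at day 2 and 33.2, 37 and 33.8 CPM at day 10 (log2 fold change 0.06 ± 0.10, edgeR adjusted p = 0.799). The value of Arid3a turned to 0.08 without day 2 replicate 1, and that of Lin28b to -0.03 without day 10 replicate 2 and -0.05 without day 2 replicate 3.

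Of the 34 tested genes on the list of targets described in the literature, 3 fell, 2 rose and 29 did not pass. These were 8.82% lower and 5.88% higher, against 2.06% and 2.01% of all genes tested, and without day 10 replicate 3 none was called. The list had a median log2 fold change of -0.10, against -0.04 in control cells. Lactb, a mitochondrial serine protease, had 22.7, 21.7 and 23.3 CPM at day 2 and 11.2, 19.2 and 13.1 CPM at day 10 (log2 fold change -0.65 ± 0.14, edgeR adjusted p = 0.0183). Each day 10 library lay below each day 2 library, with replicate 2 the closest. Tor2a, an ATPase of the endoplasmic reticulum, had 19.6, 19.6 and 24.4 CPM at day 2 and 15.9, 17.5 and 12.4 CPM at day 10 (log2 fold change -0.48 ± 0.13, edgeR adjusted p = 0.0414). Ppp2ca, the catalytic subunit of protein phosphatase 2A, had 207, 217 and 233 CPM at day 2 and 177, 187 and 169 CPM at day 10 (log2 fold change -0.30 ± 0.07, edgeR adjusted p = 0.0315), and the days did not overlap in either gene. Ppp2ca held no CTCAGGG in its longest 3′ UTR, while Lactb and Tor2a each held the 8-base site shown above. In the opposite direction went Trp53inp1, a p53-induced autophagy and death factor, with 16.9, 15.6 and 12.7 CPM at day 2 and 25.6, 26.7 and 44.2 CPM at day 10 (log2 fold change 1.06 ± 0.21, edgeR adjusted p = 0.0127), and Bbc3, which encodes the death protein PUMA, with 102, 89.6 and 124 CPM at day 2 and 150.2, 127 and 237 CPM at day 10 (log2 fold change 0.68 ± 0.17, edgeR adjusted p = 0.0354). Both were highest in replicate 3 of day 10, and their days did not overlap. In control cells the 5 genes had values of -0.06 (Lactb), -0.01 (Ppp2ca), -0.03 (Tor2a), 0.26 (Trp53inp1) and 0.06 (Bbc3), none of which passed. In libraries labelled day 13, Lactb stood at 21.5, 24.1 and 20.2 CPM with continued doxycycline and 14.1, 14.1 and 14.6 CPM with withdrawal. When 1 library at a time was left out, Lactb kept its call in 3 of 6 (-0.83 to -0.50, lost without day 2 replicate 3 and day 10 replicates 1 and 3), Ppp2ca in 2 of 6 (-0.34 to -0.26, lost without day 2 replicates 2 and 3 and day 10 replicates 1 and 3) and Tor2a in 2 of 6 (-0.59 to -0.33, lost without day 2 replicates 1 and 3 and day 10 replicates 1 and 3). Trp53inp1 kept it in 4 of 6 (0.80 to 1.26, lost without day 2 replicate 3 and day 10 replicate 3) and Bbc3 in 2 of 6 (0.55 to 0.83, lost without day 2 replicates 2 and 3 and day 10 replicates 1 and 3). Without the replicate block the adjusted p ranged from 0.0564 to 0.222 for these 5 genes.

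Inhibitors of cyclin-dependent kinases rose, while the cyclins and mitotic genes on the same list did not pass. On the cell cycle list of 36 genes, 3 rose and none fell, and the 3 were Cdkn2c, Cdkn1a and Cdkn1b. The share that rose was 8.33%, against 2.01% of all genes tested, and without day 10 replicate 3 none was called. The list had a median log2 fold change of -0.02, against -0.02 in control cells. Cdkn1a encodes p21, the p53-induced brake on the cell cycle, and had 126, 131 and 144 CPM at day 2 and 231, 171 and 421 CPM at day 10 (log2 fold change 0.99 ± 0.18, edgeR adjusted p = 0.0102). Cdkn1b encodes p27 and had 84.3, 61.4 and 55.4 CPM at day 2 and 119, 86.2 and 160.1 CPM at day 10 (log2 fold change 0.87 ± 0.17, edgeR adjusted p = 0.0127). Cdkn2c encodes p18, which binds CDK4 and CDK6, and had 13.6, 10.6 and 13.5 CPM at day 2 and 22.2, 15.2 and 26.2 CPM at day 10 (log2 fold change 0.74 ± 0.12, edgeR adjusted p = 0.00405). In all 3 genes the highest library was replicate 3 of day 10, the lowest of day 10 was replicate 2, and the days did not overlap. Control cells had values of 0.32, 0.27 and 0.42, none of which passed. In libraries labelled day 13, Cdkn1a stood at 111, 106 and 163 CPM with continued doxycycline and 163, 154 and 177 CPM with withdrawal, in each replicate below its level at day 10. Cdkn2c stood at 23.4, 18.4 and 27.1 CPM with continued doxycycline and 21.5, 19.3 and 26.7 CPM with withdrawal, near its level at day 10. With each of the 6 libraries left out in turn, Cdkn1a kept its call in 5 of 6 (0.67 to 1.23, lost without day 10 replicate 3), Cdkn1b in 4 of 6 (0.55 to 1.09, lost without day 2 replicate 3 and day 10 replicate 3, 0.55 without day 10 replicate 3) and Cdkn2c in 5 of 6 (0.61 to 0.82, lost without day 10 replicate 3). In the fit with no block Cdkn1b kept a call and the adjusted p ranged from 0.0564 to 0.117 for the other genes.

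A list of genes under FOXO factors and of cell cycle exit was put together after values were seen, so no support is drawn from its share. It gave 9 of 29 higher and 0 lower (31%, against 2.01% of all genes tested). Besides the 3 inhibitors these were Mxd4, Pnrc1 (0.50), Klhl24, Foxo4, Ddit4 and Pdcd4. The median log2 fold change was 0.44, against 0.06 in control cells, and 0.27 without day 10 replicate 3, where edgeR called none of the 9. The summed level was 1455 to 1721 CPM at day 2 and 1892 to 3079 CPM at day 10, with no overlap. Libraries labelled day 13 held 1600, 1595 and 1697 CPM with continued doxycycline, within the range of day 2. With withdrawal they held 1818, 1704 and 1531 CPM. Ddit4, an inhibitor of the growth kinase mTORC1 that stress and FOXO factors induce, had 169, 135 and 124 CPM at day 2 and 350.2, 262 and 617 CPM at day 10 (log2 fold change 1.56 ± 0.39, edgeR adjusted p = 0.0401). Its replicate 3 at day 10 stood far above the other libraries. Mxd4, a partner of MAX that opposes MYC, had 35.6, 38.2 and 32 CPM at day 2 and 44.9, 54.9 and 55.1 CPM at day 10 (log2 fold change 0.55 ± 0.13, edgeR adjusted p = 0.0220). Foxo4, a FOXO factor itself, had 24.2, 21 and 18.7 CPM at day 2 and 31.2, 25.2 and 30.8 CPM at day 10 (log2 fold change 0.44 ± 0.12, edgeR adjusted p = 0.0368). Klhl24 rose by 0.86 (adjusted p = 0.0341) and Pdcd4, a brake on translation initiation, by 0.64 (adjusted p = 0.0493). The days did not overlap for Ddit4, Mxd4 and Foxo4. Across the 6 fits that each omitted 1 library, Ddit4 kept its call in 1 of 6 (0.98 to 1.90, lost without day 2 replicates 1, 2 and 3 and day 10 replicates 1 and 3, 0.98 without day 10 replicate 3), Mxd4 in 3 of 6 (0.44 to 0.64, lost without day 2 replicates 2 and 3 and day 10 replicate 3) and Foxo4 in 1 of 6 (0.35 to 0.50, lost without day 2 replicates 1, 2 and 3 and day 10 replicates 1 and 3). Klhl24 kept it in 3 of 6 (0.50 to 1.11, lost without day 2 replicates 2 and 3 and day 10 replicate 3, 0.50 without day 10 replicate 3) and Pdcd4 in 2 of 6 (0.34 to 0.77, lost without day 2 replicates 1, 2 and 3 and day 10 replicate 3, 0.34 without day 10 replicate 3). When the block was dropped the adjusted p ranged from 0.0825 to 0.150 for these 5 genes.

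Targets of p53 gave 6 of 31 tested higher and 0 lower (19.4%, against 2.01% of all genes tested), and 28 of the 31 had a positive value, as had 25 of the 31 in control cells. The 6 were Cdkn1a, Trp53inp1, Bbc3, Zmat3, Ercc5 and Tnfrsf10b. The median log2 fold change was 0.32, against 0.08 in control cells. The medians in pairs 1, 2 and 3 were 0.17, 0.14 and 0.61, highest in pair 3, and without day 10 replicate 3 the fitted median was 0.16 and edgeR called no member. The summed level of the list was 1666 to 1904 CPM at day 2 and 1906 to 2894 CPM at day 10. Libraries labelled day 13 held 1524, 1558 and 1863 CPM with continued doxycycline and 1736, 1725 and 1926 CPM with withdrawal. Zmat3, an RNA-binding splicing regulator, had 34.9, 41.3 and 35.7 CPM at day 2 and 40.4, 57.8 and 87 CPM at day 10 (log2 fold change 0.69 ± 0.15, edgeR adjusted p = 0.0183), with replicate 1 of day 10 inside the range of day 2. Ercc5, the endonuclease XPG of nucleotide excision repair, had 26.8, 25.3 and 26.8 CPM at day 2 and 35.9, 27.5 and 46.1 CPM at day 10 (log2 fold change 0.45 ± 0.10, edgeR adjusted p = 0.0228). Tnfrsf10b, the TRAIL death receptor, had 4.92, 3.6 and 3.37 CPM at day 2 and 7.28, 4.72 and 11.8 CPM at day 10 (log2 fold change 1.01 ± 0.27, edgeR adjusted p = 0.0378). The days of Ercc5 did not overlap, and those of Tnfrsf10b did. In fits without single libraries, Zmat3 kept its call in 4 of 6 (0.43 to 0.84, lost without day 2 replicate 3 and day 10 replicate 3, 0.43 without day 10 replicate 3), Ercc5 in 3 of 6 (0.33 to 0.57, lost without day 2 replicate 3 and day 10 replicates 1 and 3) and Tnfrsf10b in 1 of 6 (0.52 to 1.29, lost without day 2 replicates 1, 2 and 3 and day 10 replicates 1 and 3, 0.52 without day 10 replicate 3). Left unblocked, the adjusted p ranged from 0.107 to 0.165 for these 3 genes.

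**Figure D3:**
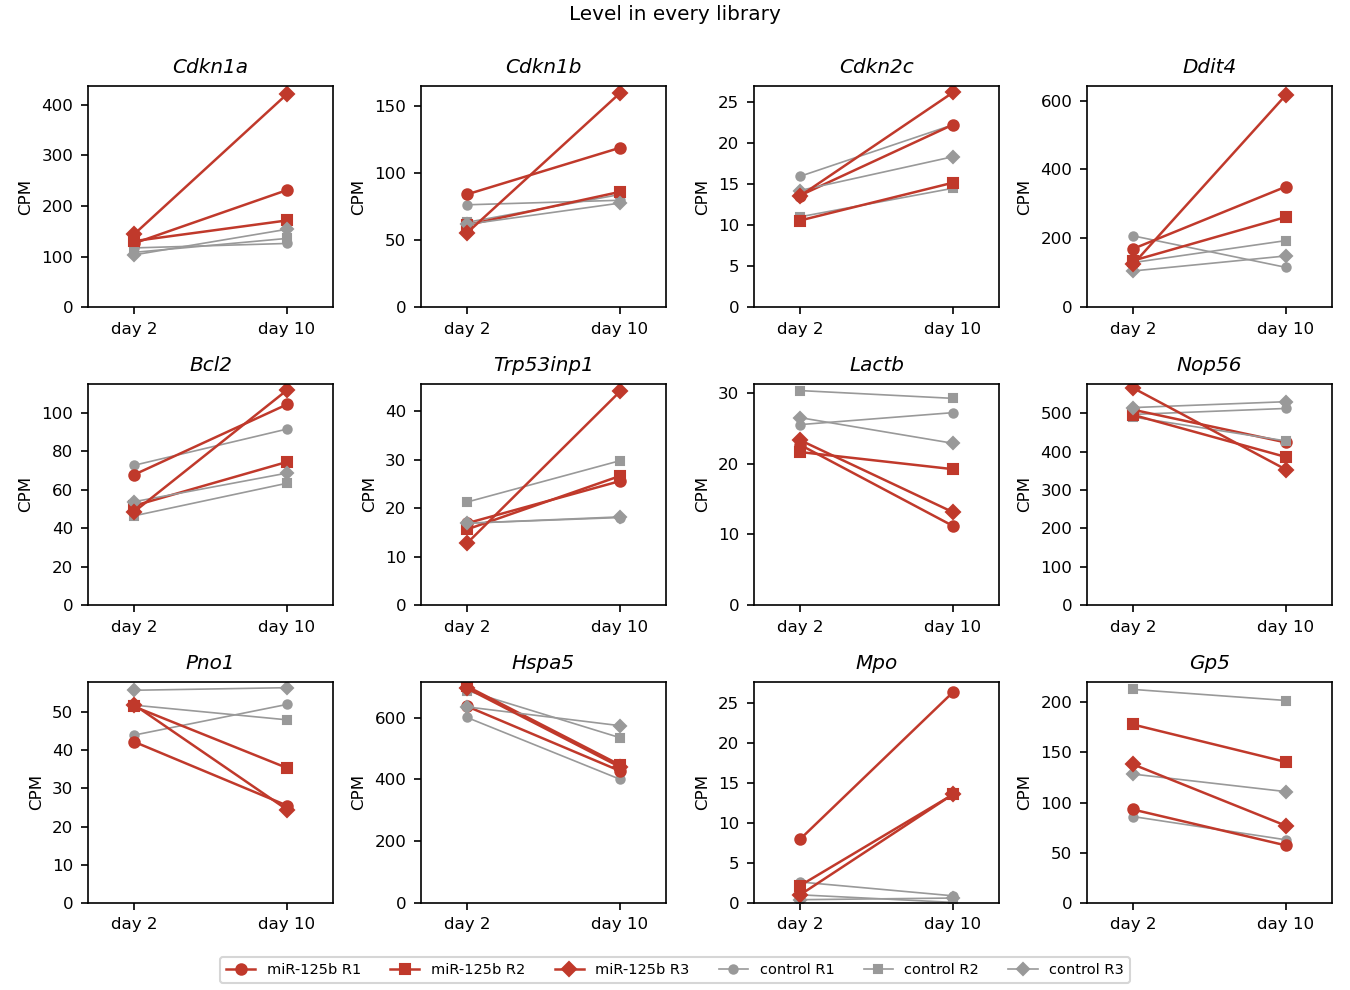
Level in CPM (vertical axes, from 0) of 12 named genes in every library at day 2 and day 10, with lines joining libraries of 1 replicate number. Red stands for miR-125b cells and grey for control cells, with circles, squares and diamonds for replicates 1, 2 and 3, and the red diamonds of Cdkn1a, Ddit4 and Trp53inp1 at day 10 lie well above the other libraries.

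Many genes that build ribosomes fell. The list, put together after values were seen, held nucleolar and assembly factors. Of 61 tested, 15 were lower and 0 higher at day 10 (24.6%, against 2.06% of all genes tested). Since the list was chosen with these values in view, no support is drawn from that share. The median log2 fold change was -0.30, against 0.03 in control cells, and 55 of the 61 had a negative value. The summed level was 11445 to 12823 CPM at day 2 and 9967 to 10910 CPM at day 10, with no overlap. Pno1, a small-subunit assembly factor, had 42.2, 51.5 and 52 CPM at day 2 and 25.5, 35.4 and 24.4 CPM at day 10 (log2 fold change -0.77 ± 0.15, edgeR adjusted p = 0.0127). Nop56, a core protein of the box C/D particles that methylate ribosomal RNA, had 509.9, 496 and 567 CPM at day 2 and 424, 386 and 353 CPM at day 10 (log2 fold change -0.43 ± 0.09, edgeR adjusted p = 0.0180). Mphosph10, a part of the processome on the early small subunit, had 57.5, 67.4 and 70.8 CPM at day 2 and 39.7, 51.7 and 39.7 CPM at day 10 (log2 fold change -0.57 ± 0.13, edgeR adjusted p = 0.0183). Replicate 2 fell least in Pno1 and Mphosph10, and the days of all 3 genes were apart. Ddx31, a nucleolar helicase, had 24.7, 22.8 and 25.2 CPM at day 2 and 16, 17.1 and 16.4 CPM at day 10 (log2 fold change -0.55 ± 0.12, edgeR adjusted p = 0.0168). Nop2, a ribosomal RNA methyltransferase, fell by 0.54 (adjusted p = 0.0220) and Polr1b, a subunit of RNA polymerase I, by 0.50 (adjusted p = 0.0432). The other members called were Noc4l, Rsl24d1, Wdr3, Dhx33, Ltv1, Rsl1d1, Bop1, Nolc1 and Nifk, and the 15 log2 fold changes ran from -0.77 to -0.37.

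In control cells Pno1 had 44, 51.8 and 55.7 CPM at day 2 and 52, 48 and 56.4 CPM at day 10, with overlapping days, and no member of that list passed. In libraries labelled day 13, Pno1 stood at 52.2, 52.3 and 50.3 CPM with continued doxycycline and 41.3, 47.6 and 52.3 CPM with withdrawal and Nop56 at 491, 422 and 473 CPM with continued doxycycline and 461, 411 and 479.7 CPM with withdrawal, above their levels at day 10 in all 3 replicates of either condition. The list median was -0.21 without day 10 replicate 3, where 0 members were called (edgeR), and up to 32 members were called without another library. Omitting the 6 libraries one by one, Pno1 kept its call in 5 of 6 (-0.99 to -0.64, lost without day 10 replicate 3), Ddx31 in 3 of 6 (-0.63 to -0.51, lost without day 2 replicate 3 and day 10 replicates 1 and 3) and Nop56 in 3 of 6 (-0.50 to -0.31, lost without day 2 replicates 2 and 3 and day 10 replicate 3). Mphosph10 kept it in 2 of 6 (-0.76 to -0.47, lost without day 2 replicates 2 and 3 and day 10 replicates 1 and 3), Nop2 in 2 of 6 (-0.73 to -0.44, lost without day 2 replicates 2 and 3 and day 10 replicates 1 and 3) and Polr1b in 2 of 6 (-0.65 to -0.40, lost without day 2 replicates 2 and 3 and day 10 replicates 1 and 3). With unpaired libraries Pno1 kept a call and the adjusted p ranged from 0.0576 to 0.130 for the other genes.

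Chaperones of the endoplasmic reticulum and 2 transfer RNA synthetases were among the genes that fell. Of 28 genes of folding and processing in that compartment, on a list put together after values were seen, 5 fell and 1 rose, with a median of -0.21 against -0.08 in control cells. The share that fell was 17.9%, against 2.06% of all genes tested, and without day 10 replicate 3 no member was called. Given how the list was chosen, no support is drawn from that share. The summed level was 7222 to 8058 CPM at day 2 and 6191 to 6280 CPM at day 10, with no overlap. Hspa5 encodes the chaperone BiP and had 637, 702 and 696 CPM at day 2 and 428, 447 and 441 CPM at day 10 (log2 fold change -0.63 ± 0.14, edgeR adjusted p = 0.0189). Pdia3, a disulfide isomerase, had 542, 601 and 644 CPM at day 2 and 404, 482 and 442 CPM at day 10 (log2 fold change -0.43 ± 0.09, edgeR adjusted p = 0.0131). Hsp90b1, the chaperone GRP94, had 313, 316 and 309.7 CPM at day 2 and 235, 211 and 237 CPM at day 10 (log2 fold change -0.46 ± 0.11, edgeR adjusted p = 0.0328), and Rpn2, a subunit of the glycosylation complex, had 319, 318 and 344 CPM at day 2 and 268, 251 and 255 CPM at day 10 (log2 fold change -0.34 ± 0.08, edgeR adjusted p = 0.0274). The days were apart in these 4 genes, and Dnajb11 fell too (-0.41). Ern1, the stress sensor IRE1, was the member that rose (0.48, adjusted p = 0.0373). In control cells the values were -0.36 for Hspa5, -0.29 for Hsp90b1 and -0.08 for Pdia3, none of which passed. As for dependence on single libraries, Hspa5 kept its call in 4 of 6 (-0.71 to -0.57, lost without day 2 replicate 3 and day 10 replicate 3), Pdia3 in 4 of 6 (-0.49 to -0.38, lost without day 2 replicate 3 and day 10 replicate 3) and Hsp90b1 in 1 of 6 (-0.53 to -0.37, lost without day 2 replicates 1, 2 and 3 and day 10 replicates 2 and 3). Rpn2 kept it in 3 of 6 (-0.40 to -0.30, lost without day 2 replicate 3 and day 10 replicates 2 and 3) and Ern1 in 2 of 6 (0.31 to 0.56, lost without day 2 replicates 2 and 3 and day 10 replicates 1 and 3, 0.31 without day 2 replicate 3). With the block taken out the adjusted p ranged from 0.0825 to 0.187 for these 5 genes.

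On the amino acid and ATF4 list, 2 of 28 genes fell and 1 rose, with a median of -0.09 against 0.08 in control cells. These were 7.14% lower and 3.57% higher, against 2.06% and 2.01% of all genes tested, and without day 10 replicate 3 none was called. Wars, which charges tryptophan onto its transfer RNA, had 139.9, 151 and 158 CPM at day 2 and 112, 135 and 116 CPM at day 10 (log2 fold change -0.30 ± 0.08, edgeR adjusted p = 0.0451). Aars, which charges alanine, had 312, 351 and 389.8 CPM at day 2 and 246, 309 and 267 CPM at day 10 (log2 fold change -0.36 ± 0.10, edgeR adjusted p = 0.0460). Both had every day 10 library below every day 2 library. The member that rose was Ddit4, given above. Among 29 DNA replication genes 1 fell and 0 rose, a share of 3.45% near the 2.06% of all genes tested, so the count is no result about the list. The list median was -0.10 against 0.08 in control cells, and -0.17 without day 10 replicate 2 and -0.05 without day 10 replicate 1. The gene that fell was Orc6, a subunit of the origin recognition complex, with 104, 103 and 119 CPM at day 2 and 83.9, 96.2 and 90.8 CPM at day 10 (log2 fold change -0.27 ± 0.07, edgeR adjusted p = 0.0443) and no overlap. The summed level of the replication list was 5331 to 5941 CPM at day 2 and 4997 to 5273 CPM at day 10, without overlap. After removal of any 1 library, Wars kept its call in 2 of 6 (-0.39 to -0.25, lost without day 2 replicates 2 and 3 and day 10 replicates 1 and 3), Aars in 2 of 6 (-0.45 to -0.27, lost without day 2 replicates 2 and 3 and day 10 replicates 1 and 3) and Orc6 in 1 of 6 (-0.32 to -0.22, lost without day 2 replicates 1, 2 and 3 and day 10 replicates 1 and 3). Unblocked, the adjusted p ranged from 0.101 to 0.223 for these 3 genes.

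A few genes of the respiratory chain and of ribosomal proteins rose, and those named here had positive values in control cells too. Among 56 respiratory chain genes of the nucleus, on a list put together after values were seen, 6 rose and 1 fell, with a median of 0.09 against 0.24 in control cells, where 3 were called. The share that rose was 10.7%, against 2.01% of all genes tested, and without day 10 replicate 3 none was called. Given how the list was chosen, no support is drawn from that share. The median was 0.00565 without day 2 replicate 1 and 0.21 without day 2 replicate 3. The median of pair 3 was -0.16, against 0.28 and 0.15 in pairs 1 and 2. Cox7c, a subunit of cytochrome c oxidase, had 234, 246 and 294 CPM at day 2 and 378, 340.3 and 352 CPM at day 10 (log2 fold change 0.46 ± 0.10, edgeR adjusted p = 0.0158), with 0.42 in control cells. Ndufb6 of complex I had 41.3, 40.6 and 52.7 CPM at day 2 and 64.5, 68.6 and 69.1 CPM at day 10 (log2 fold change 0.59 ± 0.11, edgeR adjusted p = 0.0107), with 0.31 in control cells. Ndufa3 rose by 0.50 (adjusted p = 0.0220) and passed in control cells too (0.61, adjusted p = 0.0469). Cox7b, Ndufs5 and Ndufa5 were the other genes that rose, and Ndufa10 fell (-0.31). Of 39 ribosomal protein genes 2 rose (5.13%, against 2.01% of all genes tested), Rps14 among them, and none fell. The list median was 0.06 against 0.15 in control cells. Rps14 had 1757, 1642 and 2182 CPM at day 2 and 2772, 2235 and 2573 CPM at day 10 (log2 fold change 0.44 ± 0.11, edgeR adjusted p = 0.0313), and in control cells 2050, 1708 and 1568 CPM at day 2 and 2279, 2335 and 2197 CPM at day 10 (0.36, adjusted p = 0.175). The days did not overlap in miR-125b cells. Messengers of ribosomal proteins and of Cox7c have processed pseudogenes that could take part of their reads, so these values are uncertain. Over the 6 reduced fits, Cox7c kept its call in 3 of 6 (0.35 to 0.59, lost without day 2 replicates 1 and 2 and day 10 replicate 3), Ndufb6 in 5 of 6 (0.49 to 0.72, lost without day 10 replicate 3) and Ndufa3 in 2 of 6 (0.40 to 0.65, lost without day 2 replicates 1 and 2 and day 10 replicates 1 and 3). Rps14 kept it in 2 of 6 (0.35 to 0.57, lost without day 2 replicates 1 and 2 and day 10 replicates 1 and 3). In the unpaired fit the adjusted p ranged from 0.0564 to 0.101 for these 4 genes.

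Genes of the mitochondrial genome took 1.33, 1.31 and 1.28% of the counts at day 2 and 1.46, 1.7 and 1.74% at day 10. Every day 10 library lay above every day 2 library. In control cells the shares were 1.53, 1.47 and 1.44% at day 2 and 1.41, 1.57 and 1.61% at day 10, with overlap. Of 12 tested messengers 1 rose, 1 fell and 9 had positive values, as 9 had in control cells. The shares called were 8.33% higher and 8.33% lower, against 2.01% and 2.06% of all genes tested. The median was 0.29 against 0.10 in control cells. mt-Nd3, a subunit of complex I, had 6.19, 6.03 and 7.72 CPM at day 2 and 18.8, 23.4 and 21.5 CPM at day 10 (log2 fold change 1.69 ± 0.22, edgeR adjusted p = 0.000580). It rose in control cells as well (1.33 ± 0.21, adjusted p = 0.0412). mt-Co2, a subunit of cytochrome c oxidase, had 15.5, 11.6 and 22.8 CPM at day 2 and 7.22, 6.7 and 7.57 CPM at day 10 (log2 fold change -1.18 ± 0.28, edgeR adjusted p = 0.0275), with no overlap. Both values are uncertain, since the annotation holds near-identical copies that could share their reads. Gm28438 matches 99.7% of the bases over 99.1% of mt-Nd3, and Gm28661 matches 100% over 99.6% of mt-Co2. mt-Co1 had 4314 ± 301 CPM at day 2 and 6151 ± 847 at day 10 (SD, n = 3), a log2 fold change of 0.52 that did not pass (edgeR adjusted p = 0.0939). For the 6 fits short of 1 library, mt-Nd3 kept its call in 6 of 6 (1.55 to 1.85) and mt-Co2 in 3 of 6 (-1.33 to -1.01, lost without day 2 replicate 3 and day 10 replicates 1 and 3). Without the replicate block mt-Nd3 kept a call and the adjusted p of mt-Co2 was 0.0910.

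Among lineage genes, 2 platelet receptor genes fell and granule proteases of several myeloid lineages changed. On the megakaryocyte list 2 of 35 tested genes fell (5.71%, against 2.06% of all genes tested) and 0 rose, and without day 10 replicate 3 none was called. The median was -0.35 against -0.23 in control cells. Of the 35, 30 had a negative value and 5 a positive one, and in control cells 5 were positive too. Gp5, a part of the von Willebrand factor receptor of platelets, had 93, 178 and 138 CPM at day 2 and 57.2, 140.4 and 76.8 CPM at day 10 (log2 fold change -0.65 ± 0.15, edgeR adjusted p = 0.0205). Gp1bb of the same receptor had 23, 36.2 and 39.9 CPM at day 2 and 12, 24.6 and 20.6 CPM at day 10 (log2 fold change -0.85 ± 0.20, edgeR adjusted p = 0.0250). Both were lower at day 10 in 3 of 3 pairs, but replicates differed so much in level that the days overlapped. The list median ran from -0.61 to -0.26 over the fits without 1 library, beyond 1.5 times its value. The lowest was without day 2 replicate 2. Control cells had Gp5 at 86, 213 and 128 CPM at day 2 and 62.8, 202 and 111 CPM at day 10. On the heme and membrane list 0 genes fell and 1 of 29 rose, a share of 3.45% near the 2.01% of all genes tested. The list had a median of -0.08, whose sign depended on the filter and on single libraries. The gene that rose was Cpox, an enzyme of heme synthesis, with 114, 84.5 and 74.7 CPM at day 2 and 171, 96.3 and 152 CPM at day 10 (log2 fold change 0.59 ± 0.14, edgeR adjusted p = 0.0294) and overlapping days. The 7 tested globin genes had a median of -0.72, and none passed (edgeR, 1 at an unadjusted p under 0.05, DESeq2 0). Hbb-bs had 23.6, 14.3 and 41.4 CPM at day 2 and 10.4, 3.7 and 20.6 CPM at day 10 and Hbb-bt 18.1, 13.4 and 35.2 CPM at day 2 and 12.52, 4.36 and 25.1 CPM at day 10, each lower at day 10 in 3 of 3 pairs. These near-identical genes could share reads, so their values are uncertain. With 1 library fewer each time, Gp5 kept its call in 3 of 6 (-0.84 to -0.50, lost without day 2 replicates 1 and 3 and day 10 replicate 3), Gp1bb in 2 of 6 (-1.09 to -0.69, lost without day 2 replicates 1 and 3 and day 10 replicates 2 and 3) and Cpox in 2 of 6 (0.44 to 0.72, lost without day 2 replicates 1 and 3 and day 10 replicates 1 and 3). In the fit with no block the adjusted p ranged from 0.295 to 0.746 for these 3 genes.

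A pair of basophil proteases rose from near 0. Of 29 tested mast cell and basophil genes, Prss34 and Mcpt8 rose (6.90%, against 2.01% of all genes tested). Mcpt4 fell (3.45%, against 2.06%), and 26 did not pass. The list had a median of -0.30 against 0.08 in control cells. That median had no common direction, with -0.45, 0.39 and -0.58 in the 3 pairs. Prss34, a tryptase-like protease of basophils, had 0.579, 0.535 and 0.184 CPM at day 2 and 11.6, 7.15 and 8.21 CPM at day 10 (log2 fold change 4.65 ± 0.69, edgeR adjusted p = 0.00336), from 10, 11 and 3 counts at day 2. In control cells it had 0.163, 0.0667 and 0 CPM at day 2 and 0.292, 1.29 and 0 CPM at day 10. Mcpt8, the mast cell protease 8 that marks mouse basophils, had 0.463, 0.0973 and 0.674 CPM at day 2 and 9.07, 2.64 and 3.57 CPM at day 10 (log2 fold change 3.59 ± 0.78, edgeR adjusted p = 0.0189), from 8, 2 and 11 counts. In both genes every day 10 library lay above every day 2 library. Mcpt4, a chymase of connective tissue mast cells, had 2.03, 1.95 and 4.9 CPM at day 2 and 0.383, 0.457 and 1.08 CPM at day 10 (log2 fold change -2.25 ± 0.50, edgeR adjusted p = 0.0184), without overlap. In control cells Mcpt4 had 0.650, 1.27 and 1.76 CPM at day 2 and 0.243, 0.0537 and 0.759 CPM at day 10 (-1.91, lower in 3 of 3 pairs), which did not pass. The summed level of the list, 35 genes with only Il13 at 0 counts in all 6 libraries, overlapped between the days, and the part of the cells present in the changes was not tested. When 1 library at a time was left out, Prss34 kept its call in 6 of 6 (4.20 to 5.28), Mcpt8 in 2 of 6 (2.90 to 4.61, lost without day 2 replicates 1 and 2 and day 10 replicates 1 and 3) and Mcpt4 in 5 of 6 (-2.39 to -2.01, lost without day 10 replicate 3). When the block was dropped the adjusted p ranged from 0.0878 to 0.247 for these 3 genes.

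Neutrophil genes moved in both directions. Among 12 tested, Mpo and Ctsg rose, S100a9 and S100a8 fell and 8 did not pass, with a median of 0.50 (the same with S100a8 at its bound) against -0.66 in control cells. The share was 16.7% in each direction, against 2.01% higher and 2.06% lower of all genes tested. Without day 10 replicate 3 none was called. Mpo, the myeloperoxidase of early granules, had 7.93, 2.14 and 0.980 CPM at day 2 and 26.3, 13.5 and 13.6 CPM at day 10 (log2 fold change 2.47 ± 0.48, edgeR adjusted p = 0.0131). The lowest day 10 library was above the highest of day 2. Control cells had 2.6, 1.0 and 0.391 CPM at day 2 and 0.875, 0.0537 and 0.597 CPM at day 10, and the interaction of time with miR-125b had an unadjusted p of 0.000326 and an adjusted p of 0.303. Ctsg, cathepsin G, had 0.116, 0.195 and 0.245 CPM at day 2 and 2.43, 0.812 and 1.95 CPM at day 10 (log2 fold change 3.12 ± 0.73, edgeR adjusted p = 0.0246), from 2, 4 and 4 counts at day 2. S100a9 and S100a8 form calprotectin, the main cytosolic protein of late neutrophils. S100a9 had 23, 26 and 16 counts at day 2 and 1, 0 and 0 at day 10 (adjusted p = 0.00960), a ratio of 64.7 with an exact 95% interval of 11.2 to 2593 that covers counting error only. S100a8 had 9, 14 and 4 counts at day 2 and 0 in each day 10 library, at least 8.95-fold lower against a floor of 3 counts over the group (adjusted p = 0.0464). Control cells had S100a9 at 1.36, 0.934 and 1.07 CPM at day 2 and 0.0486, 0 and 0.325 CPM at day 10, and S100a8 at 1.08, 0.867 and 0.586 CPM at day 2 and 0, 0 and 0.325 CPM at day 10. Both genes were lower at day 10 in 3 of 3 control pairs too, without passing. The 25 genes of the list summed to 32.6 to 82.6 CPM at day 2 and 44.9 to 124 CPM at day 10, with overlap, and only Chil3 had 0 counts in all 6 libraries. Whether a change in the cells present was behind these values was not tested. With each of the 6 libraries left out in turn, Mpo kept its call in 3 of 6 (2.14 to 3.24, lost without day 2 replicates 2 and 3 and day 10 replicate 3), Ctsg in 1 of 6 (2.77 to 3.48, lost without day 2 replicates 1, 2 and 3 and day 10 replicates 1 and 3) and S100a9 in 5 of 6 (lost without day 10 replicate 3). S100a8 kept it in 0 of 6 (lost without day 2 replicates 1, 2 and 3 and day 10 replicates 1, 2 and 3). Left unblocked, the adjusted p ranged from 0.0537 to 0.147 for these 4 genes.

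Of 23 stem and progenitor regulators 1 rose (4.35%, against 2.01% of all genes tested) and 0 fell, with a median of -0.10 against -0.07 in control cells. Erg, an ETS factor of stem cells and megakaryocytes, had 4.11, 0.243 and 0.674 CPM at day 2 and 13.6, 1.98 and 4.59 CPM at day 10 (log2 fold change 2.28 ± 0.60, edgeR adjusted p = 0.0401). It rose in 3 of 3 pairs, but replicate 1 was the highest on both days and the days overlapped. Across the 6 fits that each omitted 1 library, Erg kept its call in 1 of 6 (1.87 to 2.80, lost without day 2 replicates 1, 2 and 3 and day 10 replicates 1 and 3). Without the block its adjusted p was 0.490. The remaining marker lists held no called gene (edgeR). They were monocyte and macrophage (16 tested, median -0.16, 0 at an unadjusted p under 0.05, DESeq2 0), eosinophil (2 tested, median 0.71, 0 at an unadjusted p under 0.05, DESeq2 0), dendritic and MHC class II (6 tested, median 0.19, 0 at an unadjusted p under 0.05, DESeq2 0) and lymphoid (7 tested, median -0.46, 3 at an unadjusted p under 0.05, DESeq2 0). The same held for hepatoblast (2 tested, median 0.21, 0 at an unadjusted p under 0.05, DESeq2 0), endothelial and stromal (6 tested, median -0.11, 1 at an unadjusted p under 0.05, DESeq2 0) and fetal program (9 tested, median -0.10, 0 at an unadjusted p under 0.05, DESeq2 0). By summed level the monocyte genes amounted to 52.5 to 79.2 CPM at day 2 and 45.8 to 78.6 CPM at day 10, with Mertk, C1qa, Vsig4 and Spic at 0 counts in all 6. Nkg7, a cytotoxic granule gene, had 31, 18.3 and 25.1 CPM at day 2 and 82.2, 15.6 and 32.8 CPM at day 10, with replicate 1 of day 10 above all others, and it did not pass (edgeR adjusted p = 0.643).

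Of 26 tested interferon-induced genes 4 fell and 0 rose, with a median of -0.18 against -0.32 in control cells. The share that fell was 15.4%, against 2.06% of all genes tested, and without day 10 replicate 3 none was called. The median was -0.30 without day 2 replicate 2 and -0.10 without day 2 replicate 3. Oas2, a sensor enzyme of double-stranded RNA, had 4.22, 4.43 and 9.25 CPM at day 2 and 1.21, 1.67 and 4.27 CPM at day 10 (log2 fold change -1.42 ± 0.35, edgeR adjusted p = 0.0296), with replicate 3 high on both days and overlapping days. Gbp2, a guanylate-binding GTPase, had 3.24, 3.5 and 4.17 CPM at day 2 and 1.79, 1.67 and 2.22 CPM at day 10 (log2 fold change -0.94 ± 0.25, edgeR adjusted p = 0.0373), without overlap. Oasl2 fell by 1.09 (adjusted p = 0.0390) and Igtp by 0.55 (adjusted p = 0.0444). In control cells these 4 genes had values of -1.48, -0.59, -1.14 and -0.24, of which none passed. In fits without single libraries, Oas2 kept its call in 1 of 6 (-1.53 to -1.26, lost without day 2 replicates 1, 2 and 3 and day 10 replicates 1 and 3), Gbp2 in 1 of 6 (-1.07 to -0.84, lost without day 2 replicates 2 and 3 and day 10 replicates 1, 2 and 3) and Oasl2 in 1 of 6 (-1.25 to -0.90, lost without day 2 replicates 2 and 3 and day 10 replicates 1, 2 and 3). Igtp kept it in 0 of 6 (-0.65 to -0.48, lost without day 2 replicates 1, 2 and 3 and day 10 replicates 1, 2 and 3). With unpaired libraries the adjusted p ranged from 0.0910 to 0.409 for these 4 genes.

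Of 17 genes of TGF-beta signalling and matrix, 2 fell and 0 rose, with a median of -0.27 against -0.19 in control cells. The share that fell was 11.8%, against 2.06% of all genes tested, and without day 10 replicate 3 none was called. Tgfb1, the ligand, had 653, 892 and 883 CPM at day 2 and 575, 754 and 612 CPM at day 10 (log2 fold change -0.32 ± 0.08, edgeR adjusted p = 0.0378). Skil, a co-repressor of SMAD factors, had 31.9, 57.8 and 37.8 CPM at day 2 and 15, 50.4 and 25.5 CPM at day 10 (log2 fold change -0.59 ± 0.14, edgeR adjusted p = 0.0257). Both overlapped between days through differences among replicates and were lower in 3 of 3 pairs. Among 18 immediate early genes 1 fell, Dusp2, a phosphatase of MAP kinases, with 31.8, 27.9 and 23.8 CPM at day 2 and 20.6, 13.5 and 13.4 CPM at day 10 (log2 fold change -0.82 ± 0.23, edgeR adjusted p = 0.0456) and no overlap. The share that fell on this list was 5.56%, against 2.06% of all genes tested. The list had a median of -0.19, and the 24 cholesterol genes one of 0.13. No gene passed (edgeR) on the lists of MHC class I (17 tested, median 0.05, 1 at an unadjusted p under 0.05, DESeq2 0), glycolysis and hypoxia (25 tested, median 0.19, 4 at an unadjusted p under 0.05, DESeq2 1) and cytokine signalling feedback (23 tested, median 0.09, 4 at an unadjusted p under 0.05, DESeq2 0). Gapdh, for example, had 5659, 5505 and 6585 CPM at day 2 and 6479, 4856 and 5643 CPM at day 10, with overlap. Omitting the 6 libraries one by one, Skil kept its call in 2 of 6 (-0.75 to -0.45, lost without day 2 replicates 1 and 3 and day 10 replicates 1 and 3), Tgfb1 in 1 of 6 (-0.37 to -0.24, lost without day 2 replicates 2 and 3 and day 10 replicates 1, 2 and 3) and Dusp2 in 1 of 6 (-1.02 to -0.72, lost without day 2 replicates 1, 2 and 3 and day 10 replicates 2 and 3). With the block taken out the adjusted p ranged from 0.112 to 0.722 for these 3 genes.

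**Figure D4:**
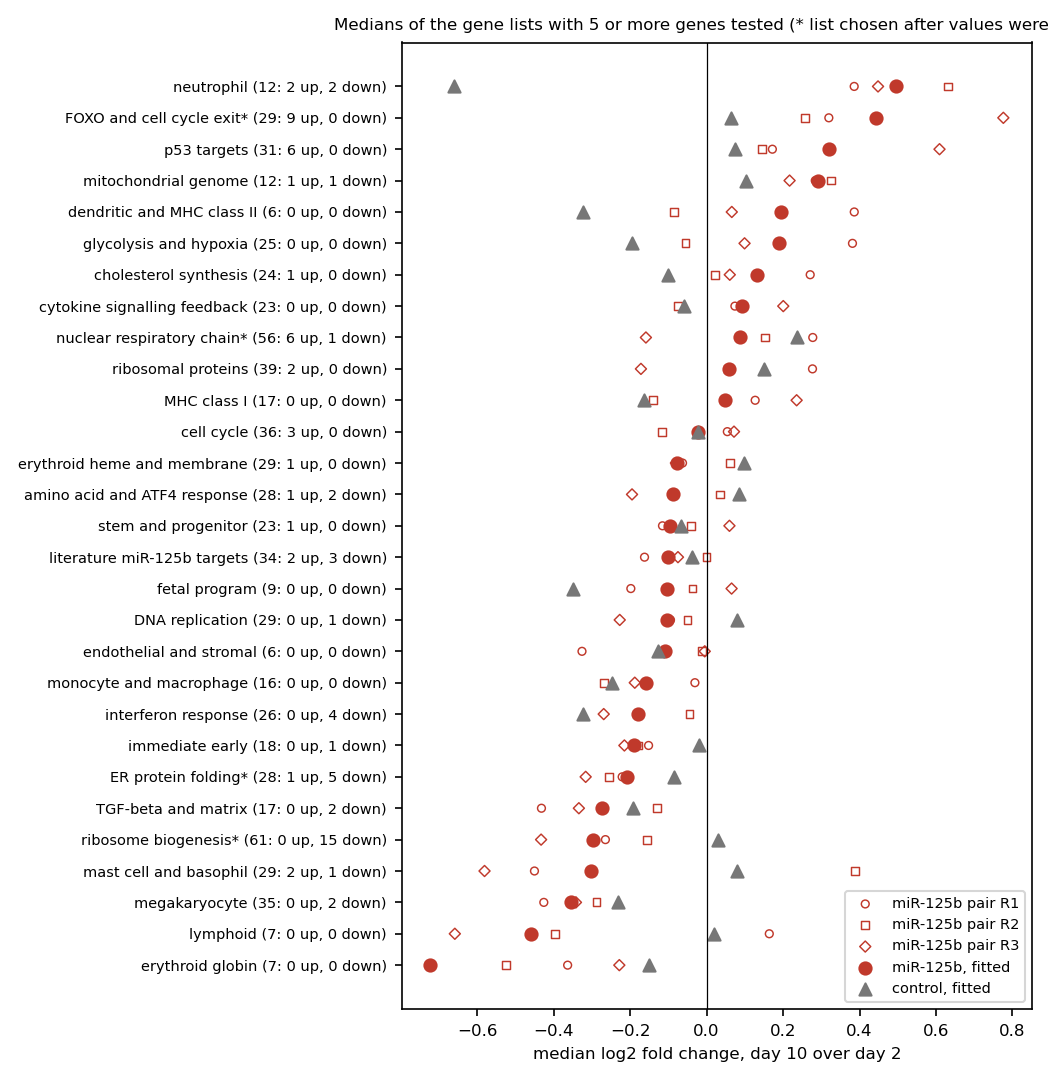
Median log2 fold change, day 10 over day 2 (horizontal axis), of the 29 gene lists with 5 or more tested genes (vertical axis, with tested and called genes in brackets). Filled red circles are the fitted medians of miR-125b cells, open red symbols the medians of the 3 replicate pairs and grey triangles the fitted medians of control cells, and the ribosome biogenesis list lies at -0.30 with its control at 0.03.

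The 10 rising genes with the largest folds, where the mean log2 CPM was no lower than 2 and the days were apart, included Prss34, Mpo, mt-Nd3 and Ddit4, given above, with Tnfrsf14, Cpne2 and the non-coding C030017G13Rik, 4933431E20Rik and Gm37795. Tnfrsf14, the herpesvirus entry mediator of the TNF receptor family, had 4.17, 2.92 and 2.39 CPM at day 2 and 9.84, 9.38 and 14.4 CPM at day 10 (log2 fold change 1.80 ± 0.29, edgeR adjusted p = 0.00336). Cpne2, a calcium-dependent membrane-binding protein, had 5.79, 9.73 and 7.72 CPM at day 2 and 12.9, 18.4 and 28.4 CPM at day 10 (log2 fold change 1.34 ± 0.35, edgeR adjusted p = 0.0378). Gm37795 had 3.82, 7.69 and 4.1 CPM at day 2 and 13.3, 15.3 and 22.5 CPM at day 10 (log2 fold change 1.80 ± 0.29, edgeR adjusted p = 0.00336), against 3.96, 8.07 and 4.59 CPM at day 2 and 4.13, 7.89 and 3.85 CPM at day 10 in control cells. C030017G13Rik rose by 2.0 (adjusted p = 0.0127) and the antisense gene 4933431E20Rik by 1.92 (adjusted p = 0.0210), and since the counting is not stated to use strand, reads of an antisense gene and its partner cannot be told apart. As for dependence on single libraries, Tnfrsf14 kept its call in 6 of 6 (1.57 to 2.05), Cpne2 in 1 of 6 (1.06 to 1.47, lost without day 2 replicates 1, 2 and 3 and day 10 replicates 1 and 3) and Gm37795 in 6 of 6 (1.45 to 2.12). C030017G13Rik kept it in 4 of 6 (1.44 to 2.25, lost without day 2 replicate 3 and day 10 replicate 3) and 4933431E20Rik in 3 of 6 (1.55 to 2.40, lost without day 2 replicates 1 and 3 and day 10 replicate 3). Unblocked, Tnfrsf14 kept a call and the adjusted p ranged from 0.0579 to 0.301 for the other genes.

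Of the 10 falling genes with the largest folds, 6 were processed pseudogenes, copies of messengers in the genome, and 2 more have near-identical copies (Rps27rt and mt-Co2). Rpl15-ps3 had 9.03, 12.1 and 18.9 CPM at day 2 and 1.92, 1.78 and 1.3 CPM at day 10 (log2 fold change -2.95 ± 0.33, edgeR adjusted p = 0.000146), the lowest p of all genes. Gm8430 had 12.8, 14.4 and 19.9 CPM at day 2 and 3.39, 3.35 and 3.08 CPM at day 10 (log2 fold change -2.24 ± 0.27, edgeR adjusted p = 0.000193). In both the days were far apart, and control cells had 5.2, 11 and 9.72 CPM at day 2 and 3.6, 4.51 and 6.18 CPM at day 10 for Rpl15-ps3. The others were Gm14303 (-2.24), Rpl19-ps11 (-2.14), Rpl28-ps1 (-1.70) and Gm14586 (-1.39). Among all tested processed pseudogenes 19 of 263 fell and 6 rose (7.22% lower, against 2.06% of all genes tested), although their median was 0.14. For each of the 19 the closest protein-coding transcript matched at 94.3% to 100% of aligned bases, and for 15 it was a ribosomal protein messenger. Rpl15-ps3 matched Rpl15 (100%), Gm8430 Rps27a (99.8%) and Gm14303 Rps29 (100%). The matching Rpl15 had 1445 CPM at day 2 and 1626 at day 10 as means (0.17, edgeR adjusted p = 0.231), and of the 19 closest messengers only Cox7c was called, which rose. Reads of such copies could be divided between them, so these falls are uncertain as changes of the pseudogenes.

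The remaining falling genes of this set were protein-coding. Prr5l, a partner of the mTORC2 kinase complex, had 8.68, 5.35 and 9.01 CPM at day 2 and 3.83, 1.93 and 3.62 CPM at day 10 (log2 fold change -1.34 ± 0.34, edgeR adjusted p = 0.0328), and 2010300C02Rik had 10.9, 16.5 and 12.1 CPM at day 2 and 3.26, 8.37 and 5.46 CPM at day 10 (log2 fold change -1.32 ± 0.33, edgeR adjusted p = 0.0328), both without overlap and with control values of -1.06 and -1.07. Rps27rt, a copy of Rps27 with no intron, fell by 1.38 (adjusted p = 0.0399). After removal of any 1 library, Prr5l kept its call in 2 of 6 (-1.51 to -1.10, lost without day 2 replicates 2 and 3 and day 10 replicates 1 and 3), 2010300C02Rik in 2 of 6 (-1.49 to -0.99, lost without day 2 replicates 1 and 3 and day 10 replicates 1 and 3) and Rps27rt in 1 of 6 (-1.71 to -1.01, lost without day 2 replicates 2 and 3 and day 10 replicates 1, 2 and 3). Rpl15-ps3 kept it in 6 of 6 (-3.17 to -2.65) and Gm8430 in 6 of 6 (-2.35 to -2.09). In the unpaired fit Rpl15-ps3 and Gm8430 kept their calls and the adjusted p ranged from 0.107 to 0.382 for the other genes.

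Long non-coding genes had more upward than downward calls. The class joined lincRNA, antisense, processed transcript, sense intronic, sense overlapping, bidirectional, macro lncRNA and TEC entries. Of 1194 tested, 52 rose and 1 fell (4.36% higher, against 2.01% of all genes tested), with a median log2 fold change of 0.35 against -0.05 in control cells and 0.27 without day 10 replicate 3. They took 0.826, 0.818 and 0.714% of the counts at day 2 and 0.874, 0.893 and 0.969% at day 10, and every day 10 library lay above every day 2 library. In control cells the shares were 0.898, 0.844 and 0.836% and 0.795, 0.810 and 0.863%, with overlap. Protein-coding genes, 11724 tested, had 209 higher and 257 lower with a median of -0.00589.

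Control cells were compared over the same interval, with no library in common. There 20 genes changed (0.149% of 13419), 14 of them higher (0.104%) and 6 lower (0.0447%). The unadjusted p of 1568 genes was under 0.05. DESeq2 called 165, and without the block edgeR called 0 (906 at an unadjusted p under 0.05). Both arms called 6 genes, among them Coa4, Gm10146, mt-Nd3, Ndufa3 and Hmgn5, each in the same direction, which is 1.1% of the calls in miR-125b cells and 30% of those in control cells. Hmgn5, a nucleosome-binding protein, rose by 0.48 and 0.48. Of the 270 genes that rose in miR-125b cells, 206 had a positive value in control cells (76.3%, where 47.1% of all genes tested were positive), with a median of 0.17. Of the 277 that fell, 207 had a negative value there (74.7%), with a median of -0.08. Across all genes tested Pearson's r between the arms was 0.26, a description over genes, which are not independent. Since these genes were chosen by their change in miR-125b cells, nothing is read from the smaller size of their control values. Counts without 1 control library were 0, 0 and 1 for day 10 replicates 1, 2 and 3, and 70, 0 and 0 for those of day 2.

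**Figure D5:**
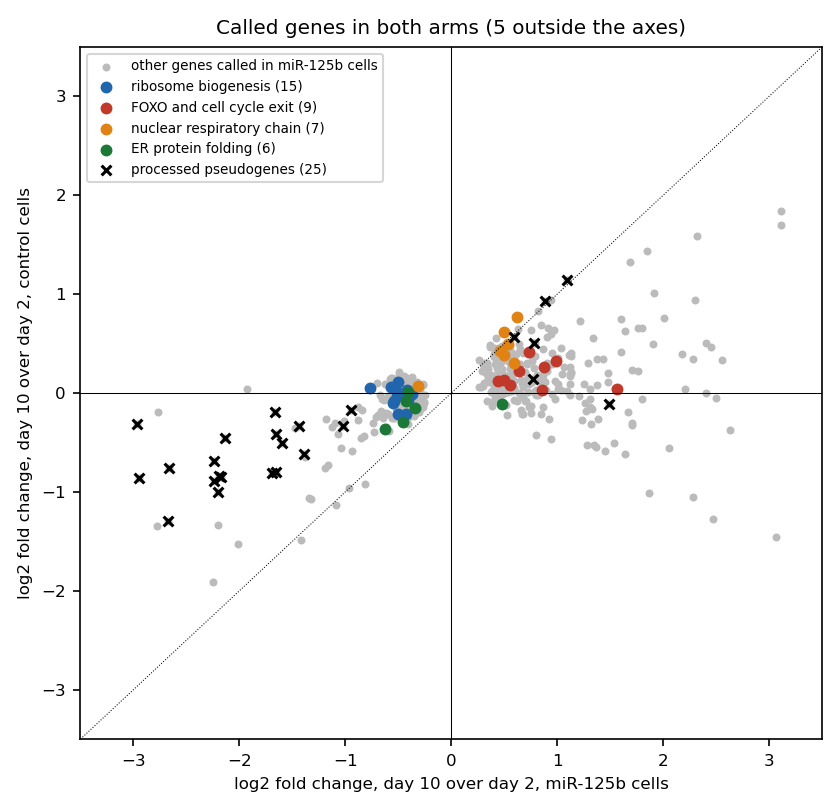
Log2 fold change, day 10 over day 2, in miR-125b cells (horizontal axis) and control cells (vertical axis) for the genes called in miR-125b cells, with the line of equal change dotted. Ribosome biogenesis genes in blue lie between -0.21 and 0.11 on the control axis, FOXO and cell cycle exit genes in red between 0.03 and 0.42 and respiratory chain genes in orange that rose between 0.31 and 0.77, and processed pseudogenes are crosses.

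Whether time acted differently with miR-125b was tested as an interaction. No gene passed (edgeR, 0 of 13419, 0%), with an unadjusted p under 0.05 for 1609 genes and 0.303 as the lowest adjusted p. DESeq2 called 5, and edgeR called 19 without miR-125b day 10 replicate 2. Of the 547 genes called in miR-125b cells, 332 had an unadjusted interaction p under 0.05, where 1609 of all 13419 had one. The 547 were chosen by their change in miR-125b cells, which is itself a part of the interaction, so nothing is read from that count. Gm37795 (1.87 ± 0.41), Pno1 (-0.82 ± 0.21), Cdkn1a (0.67 ± 0.25) and Lactb (-0.60 ± 0.20) were among the 332, as were Mpo and Rpl15-ps3, and none of these passed after adjustment. The larger number of calls in miR-125b cells is therefore not shown to differ from control cells for any single gene.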

How the data were processed

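RNA-seq libraries of mouse fetal liver cells were deposited as 1 table of read counts per Ensembl gene. Per the submitters' processing notes, the authors used fastp, HISAT2 2.0.5 and featureCounts on mm10, which yielded the deposited counts, and the notes used here give no annotation release or strand setting. Reads shared by copies of a gene may be lost or divided in such counts.

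Group names came from the labels. Of 47069 gene IDs, 46574 matched GENCODE M21 names, and the rest held at most 0.0306% of the counts of a library. Counts of all 24 libraries were fitted with edgeR 4.0.16 (R 4.3.3), with TMM scaling, filterByExpr by group, 8 group terms and the replicate number as a block. The quasi-likelihood test was adjusted by Benjamini-Hochberg over 13419 genes at 0.05. CPM values are TMM-scaled.

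The block was kept because same-numbered libraries deviated together. All 84 same-number pairs correlated at 0.153 to 0.824 (median 0.53), against a median of -0.34 for different numbers (highest 0.196). The lowest, 0.153, was replicate 3 of the days compared here. Replicates differed beyond sampling noise (chi-square per degree of freedom 15.5 to 41.1). The fit was also run on simulated counts of 13419 genes. It recovered 74% of 100 genes changed 1.5-fold and 96% of 100 changed 2-fold, with 8 false calls. The simulated counts held no replicate effect, so that run cannot judge the block or the dependence on single libraries.

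The members and gene lists were chosen with earlier results of these data known, and 4 lists and the genes called in all fits after values were seen. The text names Gata1, Arid3a, Arid3b and Lin28b, then the 10 genes of largest change in each direction among called genes with average log2 CPM of at least 2 and groups apart, then up to 4 called members of each list, and otherwise members picked after their values were seen. Alternatives were fits without the block, with other scaling, filters and tests (DESeq2 1.42.0), with fewer libraries and without each library. A few genes that meet these rules are not reported here.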

Additional observations from a re-analysis of the deposited data

How the results depend on the processing

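The count of 547 genes in miR-125b cells became 30 without the replicate block, 903 with DESeq2 and replicate in the design, 1141 in a blocked fit of the 12 miR-125b libraries and 268 in one of the 6 compared libraries. It was 525 with relative log expression size factors, 626 with the newer quasi-likelihood estimate, 464 with no filter beyond 1 count and 545 with at least 10 CPM in 3 libraries. Leaving out 1 library gave 20 to 1045 calls. In control cells the count of 20 became 0 without the block, 165 with DESeq2 and 44 with no filter beyond 1 count, and 0 to 70 without 1 library. The interaction of 0 became 5 with DESeq2 and ranged from 0 to 19 without 1 library. The cause of these differences was not tested.

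Without the replicate block 68 named genes lost their call and the other 40 kept their side of the threshold, and no sign changed. A fit of the 6 compared libraries lost 27 calls of named genes, and the absence of a filter 16. Hbb-bs and Pdgfrb passed in the fits of 12 and of 6 libraries, where they had not before. Pecam1 was 0.00833 with at least 10 CPM in 3 libraries and Hmga1 -0.00328 with no filter beyond 1 count, against -0.0195 and 0.0129. Values with both signs in fits without 1 library were those of Arid3a (-0.25 to 0.0759), Lin28b (-0.0509 to 0.16), Siglecf (-0.23 to 0.0414), H2-DMa (-0.11 to 0.16), H2-Ab1 (-0.0878 to 0.63), Nkg7 (-0.0467 to 0.72), Afp (-0.42 to 0.0720), Pecam1 (-0.12 to 0.0265), Hmga1 (-0.0610 to 0.0790) and Gapdh (-0.19 to 0.0392), none of which had passed. Where 1 library of a group was left out, 2 libraries remained, and the spread was pooled over all groups. Medians of lists changed sign in at least 1 alternative for MHC class I (0.0487 against -0.0176), cell cycle (-0.0227 against 0.0306), dendritic and MHC class II (0.19 against -0.0422), endothelial and stromal (-0.11 against 0.0802), eosinophil (0.71 against -0.0725), erythroid heme and membrane (-0.0775 against 0.0876), immediate early (-0.19 against 0.0789), lymphoid (-0.46 against 0.54), mast cell and basophil (-0.30 against 0.0498) and ribosomal proteins (0.0595 against -0.0346).

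Depth was similar in the 6 libraries, and each day had 3. The pairing rests on shared deviations, since the labels give no source for the replicate number. Time in culture and time on doxycycline are the same in each arm and cannot be told apart. Long non-coding genes, pseudogenes and genes with copies rest on counts whose strand and multiple-mapping rules are not given in the sources used here.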

Other observations

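Some values bear on what libraries of 1 replicate number share. Xist, the RNA that coats the inactive X chromosome of females, had 323, 1038 and 362 CPM at day 2 and 87.4, 1227 and 1069 CPM at day 10 in replicates 1, 2 and 3 of miR-125b cells. In control cells it had 535, 1124 and 759.9 CPM and 102, 1019 and 724 CPM. Ddx3y, a helicase gene of the Y chromosome, had 54, 16.3 and 30.02 CPM at day 2 and 55.9, 7.3 and 25.6 CPM at day 10 in miR-125b cells, and 42.1, 8.14 and 34.8 CPM and 63.3, 0.751 and 22.8 CPM in control cells. Both genes were present in all 12 libraries. In replicate 1 Xist was lower at day 10 in both arms, and in replicate 2 Ddx3y was lower at day 10 in both arms. Replicate 3 of miR-125b cells had more Xist at day 10 than at day 2, and replicate 3 of control cells slightly less.

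A pair of single genes was looked at after their values were seen. Rpl30, a protein of the large ribosomal subunit, had 867, 885 and 1145 CPM at day 2 and 1514, 1305 and 1484 CPM at day 10 (edgeR adjusted p = 0.00970), although the 39 ribosomal protein genes had a median log2 fold change of 0.06. Pdgfrb, a growth factor receptor of stromal cells, had 36, 8.17 and 16.7 CPM at day 2 and 55.6, 13.2 and 36.9 CPM at day 10, higher at day 10 in 3 of 3 pairs, but the range over replicates was wider than the change and it did not pass (adjusted p = 0.398).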
